A study of Leptinotarsa decemlineata with 6 samples.

Results

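The genes described here are the mitochondrial ribosome and translation genes of the Colorado potato beetle (CPB), *Leptinotarsa decemlineata*. They were chosen by the Swissprot name of their best protein match, which had to be a 28S or 39S ribosomal protein, another mitochondrial ribosomal protein, or a mitochondrial elongation factor, initiation factor or tRNA ligase. A mean of at least 1 TPM in either group was also required. TPM is the number of fragments of a gene corrected for transcript length and scaled so that each library sums to 1000000. Of 236706 genes named by the Trinity assembler, 119 had such a name and 81 of them passed the floor. By Swissprot name the 81 members comprised 22 small-subunit proteins, 38 large-subunit proteins, 4 elongation factors, 1 initiation factor and 16 aminoacyl-tRNA synthetases. Swissprot names these synthetases tRNA ligases. The subunit was read from the S or L of the protein name and was not checked otherwise.

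Whole-head RNA of adult CPBs was sequenced in 3 libraries of the non-treatment group (NT1, NT2 and NT3) and 3 of the antibiotic group (AB1, AB2 and AB3). All 6 libraries were labelled WT. The antibiotic beetles ate potato leaves soaked in a mixture of tetracycline, penicillin, ofloxacin, ciprofloxacin and ampicillin with Tween-20, and the non-treatment beetles ate leaves without antibiotics, soaked in Tween-20 according to the methods for the feeding test but described elsewhere in the study as fresh leaves only. The concentration behind these libraries, the number of heads in a library and the sex of the beetles are not stated, and the labels also call the material an olfactory cell type. The labels do not say whether the libraries came from separate groups of beetles, so p-values measure the spread between these libraries, which may be technical.

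Mitochondria keep their own ribosome, which descends from that of bacteria and makes a small set of membrane proteins of the respiratory chain and the ATP synthase. Its RNAs are coded in the mitochondrial genome, whereas its proteins, the translation factors and the tRNA synthetases are coded in the nucleus, made in the cytosol and imported. Antibiotics of the tetracycline class block bacterial ribosomes and are known to slow mitochondrial translation as well, so the comparison asks how the nuclear genes of this machinery differed between beetles with and without the mixture.

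The libraries differed in more than the feeding. Estimated counts of 5 libraries summed to between 25397497 and 33613953, and those of AB1 were not analysed here. The label head was checked against 21 genes with eye names, whose summed TPM was 115 to 131 without and 446 to 614 with antibiotics. Of these 21 genes 8 were called higher and 1 lower (limma, adjusted p under 0.05), against 2.88% and 7.26% of all genes tested. In the eye list 8 differences lay below 0, against 19319 of the 33919 genes tested. A mean under 1 TPM in the non-treatment group was found in 4 of the 21, against 10.5% of all genes tested. The keywords also matched arrestin domain proteins, which are not limited to the eye. Rhodopsin (TRINITY_DN52274_c7_g1), the light receptor, stood at 0.252 to 0.639 TPM in NT1 to NT3 and at 138 to 212 TPM in AB1 to AB3, so this one defining marker of the eye was near 0 in the non-treatment group. The sum of 14 brain and neuropeptide genes, also of the head, went the other way, from 237 to 288 TPM without to 132 to 219 TPM with antibiotics. Gene by gene this list was split, with 7 differences above 0 and 7 below and a median of 0.17. In limma 2 of the 14 were called higher and 3 lower, against the same shares of all genes tested. Muscle genes (32) summed to 9123 to 15749 TPM against 34104 to 39633, and gut digestion genes (96) to 8767 to 27153 against 4424 to 7239. Antibiotic feeding and the tissue in the libraries therefore cannot be told apart in any difference below, and in bulk RNA fewer cells of a type and less RNA per cell cannot be told apart either.

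Every member was present in both groups. The lowest group mean of any member was 2.09 TPM, so a floor of 1 TPM in either group alone would have kept the same 81 genes. Each of the 81 had an arthropod as its best match in the NR protein database, with the red flour beetle *Tribolium castaneum* in 55 and the mountain pine beetle *Dendroctonus ponderosae* in 20. The 81 genes carried 77 distinct protein names. The proteins named by more than 1 gene were S9, elongation factor Tu, the aspartate ligase and the isoleucine ligase, and the assembler may have split a transcript in such cases.

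At the floor itself the gap was wide. Just inside lay a gene for the aspartate ligase (TRINITY_DN61030_c2_g4), with means of 2.34 TPM without and 2.36 TPM with antibiotics, followed by an isoleucine ligase (TRINITY_DN66018_c3_g3; 2.52 and 2.40 TPM) and the cysteine ligase (TRINITY_DN64119_c0_g2; 3.36 and 2.81 TPM). Just outside lay another gene named S9 (TRINITY_DN64732_c1_g5), with means of 0.737 and 0.651 TPM, then a leucine ligase (TRINITY_DN82139_c0_g1), listed at 0 without antibiotics and with a mean of 0.648 TPM with them. The next was L22 (TRINITY_DN100994_c0_g1), with means of 0 and 0.476 TPM. This leucine ligase and L22 were listed above 0 in AB1 only, at 1.94 and 1.43 TPM. The best NR match of the leucine ligase was *Pantholops hodgsonii*, which is not an arthropod, and L22 had no NR organism. Of the 38 candidates below the floor, 8 were listed at 0 in all 6 libraries and 12 had an arthropod as best NR match.

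The transcripts of the ribosomal proteins were present at moderate and fairly even levels. The 60 ribosomal proteins had a median of 28.1 TPM over the 6 libraries, and 55 of them lay between 10 and 100 TPM. The highest was L35 (TRINITY_DN62761_c1_g3) at 114 TPM, 39.9-fold above the lowest, a short S9 match (TRINITY_DN65842_c10_g1) at 2.85 TPM. After L35 the most abundant large-subunit proteins were L33 (TRINITY_DN48787_c0_g1; 80.0 TPM) and L27 (TRINITY_DN59748_c7_g4; 75.7 TPM), a protein that in bacteria lies near the site where peptide bonds are made. L12, the stalk protein that recruits translation factors to the ribosome, had a mean of 40.4 TPM, and 18 of the 60 proteins were at or above it.

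The transcripts of the charging enzymes were mostly less abundant than those of the ribosomal proteins. The 16 synthetases had a median of 7.82 TPM, and all 16 lay below the median ribosomal protein. The ranges overlapped, since 18 of the 60 ribosomal proteins lay below the highest synthetase. The highest were the serine ligase (TRINITY_DN54273_c5_g2; 20.6 TPM), the phenylalanine ligase (TRINITY_DN48157_c0_g1; 19.2 TPM) and the glutamate ligase (TRINITY_DN63896_c0_g2; 14.7 TPM). These are levels over all 6 libraries, corrected for length by the authors, and since the rule used levels they are given as a description.

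Most members had nearly the same level in the antibiotic and the non-treatment group. Only 3 of the 81 differed at an adjusted p under 0.05 in limma, 1 higher and 2 lower with antibiotics, that is 3.70% of the members. Among all 33919 genes tested, 10.1% were called, 2.88% higher and 7.26% lower. Among the 28634 of these with a mean of at least 1 TPM over all 6 libraries the shares were 3.16% and 7.76%, and among the 17293 in the range of mean levels of the members 3.77% and 9.24%. The 1 higher gene was annotated as ribosomal protein S28, and the 2 lower genes as elongation factor Ts and the mitochondrial arginine ligase. The 3 calls were also the only members past the cut-offs of the methods, an unadjusted p under 0.05 and a log2 ratio beyond 1. Of these 1 was higher (against 5.97% of all genes tested) and 2 were lower (against 14.4%). Here the p came from limma and the ratio from mean TPM, whereas the methods took the p from DESeq2. At an unadjusted p under 0.05, 4 members passed, against 24.3% of all genes tested.

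**Figure D1:**
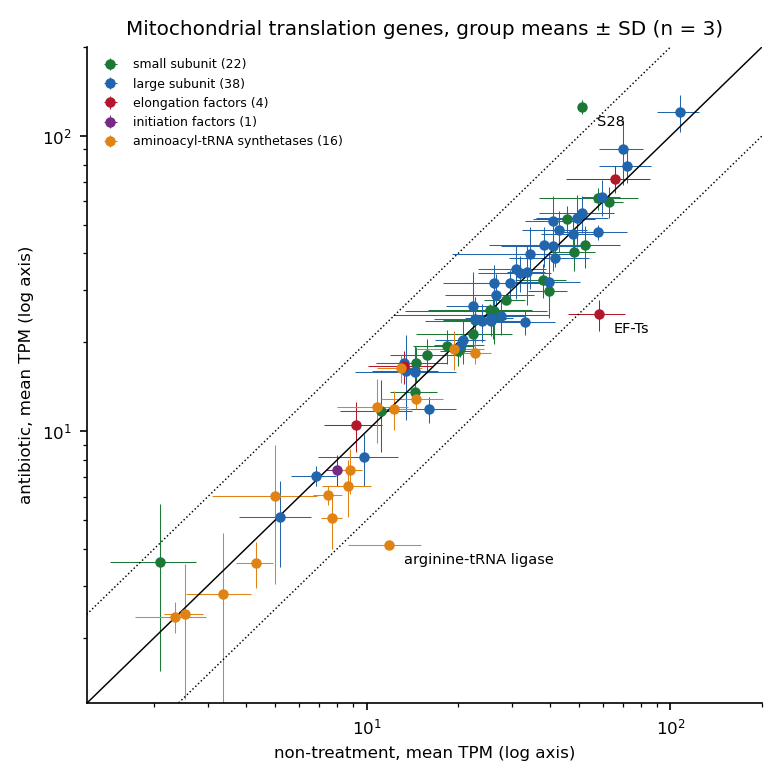
Mean TPM of the 81 genes in the antibiotic group against the non-treatment group, both on log axes, coloured by role, with bars for 1 SD over 3 libraries. The solid line marks equal means and the dotted lines 2-fold differences. S28 lies above the band and elongation factor Ts and the arginine ligase lie below it, while 78 of the 81 genes lie within it.

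The similarity was close in size as well as in the test. The ratio of group means was within 1.5-fold either way in 76 members (93.8%) and within 2-fold in 78 (96.3%). Over all tested genes these shares were 50.4% and 67.1%, and over the tested genes in the range of mean levels of the members they were 63.9% and 78.4%. Genes in that range share its limits with the members but were not matched to them in level. The groups did not overlap in 8 members (9.88%), against 30.3% of all genes tested. Differences below are the fitted values on the log2(TPM + 1) scale, antibiotic minus non-treatment, which understates the change of low genes. Their median was 0.03 over the members and -0.09 over all genes tested, and 59 of the 81 members differed by less than 0.25, against 34.4% of all genes tested.

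The precision allowed a bound for most genes. The 95% interval of the difference lay within 1 either way on the log2 scale in 73 of the 81 members, against 38.1% of all genes tested and 49.2% of those in the members' TPM range. The half-width of that interval had a median of 0.55 over the members and reached 0.96, so a moderate difference in a single gene could not be detected. The 8 exceptions were the 3 called genes, the cysteine, methionine and proline ligases, L16 and the short S9 match.

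**Figure D2:**
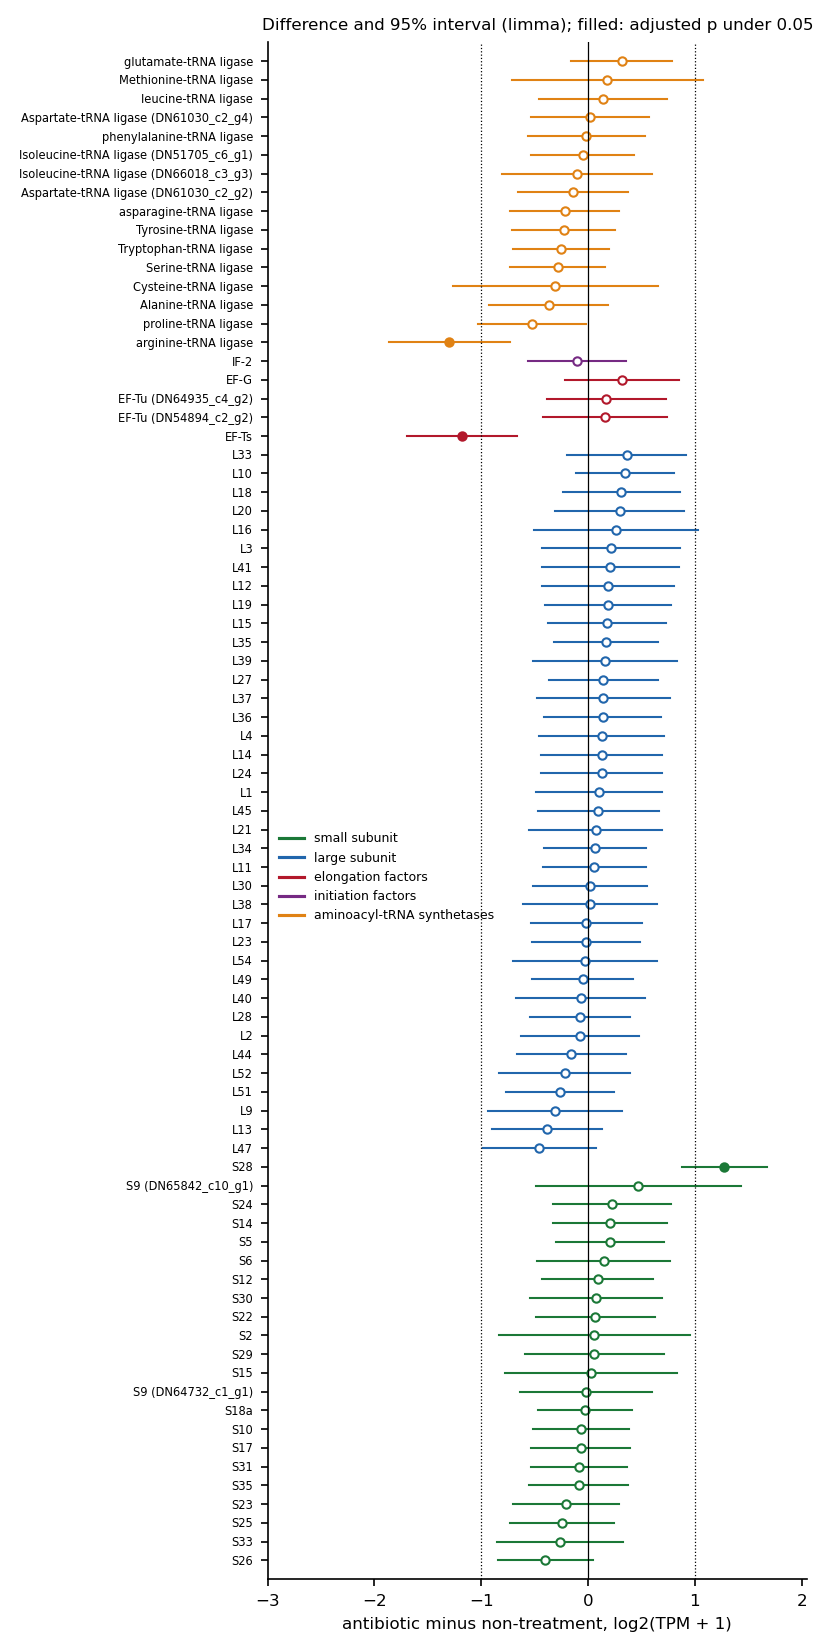
Difference in log2(TPM + 1), antibiotic minus non-treatment, for each of the 81 genes with its 95% interval from limma, ordered by role. The 3 filled points (S28, elongation factor Ts and the arginine ligase) are those with an adjusted p under 0.05, and the intervals of 73 genes stay between the dotted lines at -1 and 1.

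Among the small-subunit proteins S28 stood alone. The gene annotated as S28 (TRINITY_DN63274_c0_g1) had 50.0, 50.8 and 52.7 TPM in NT1, NT2 and NT3 and 122, 121 and 133 TPM in AB1, AB2 and AB3. The 3 antibiotic libraries lay far above the 3 non-treatment libraries, and the values within a group were close to each other. The means were 51.2 ± 1.38 and 126 ± 6.86 TPM (SD, n = 3 libraries each), a difference of 1.28 (SE 0.170; adjusted p = 0.00383, limma). It was called in all 18 alternative fits, with differences of 1.21 to 1.38. In the antibiotic libraries S28 was 4.24 to 5.26 times the median ribosomal protein of the same library, and in the non-treatment libraries 1.40 to 2.30 times.

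The annotation of the S28 gene rests on the weaker of its matches. Its estimated counts per TPM, which grow with transcript length, were 3.18 times the median of the members and the highest of the 60 ribosomal proteins. Its Swissprot match to S28 had an E value of 5.89e-34, whereas its best NR match, an uncharacterized protein of *Tribolium castaneum*, had one of 3.9e-187. Whether the fragments come from the S28 part of the transcript was not tested.

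The other 21 small-subunit genes did not pass the test. Mitochondrial S12 (TRINITY_DN56763_c5_g2), part of the decoding centre and known in flies as technical knockout, had 14.9, 17.2 and 23.0 TPM in NT1 to NT3 and 17.6, 22.4 and 18.4 TPM in AB1 to AB3. S29 (TRINITY_DN58240_c5_g1), the GTP-binding protein also called DAP3, had 9.85, 9.02 and 14.5 TPM against 8.03, 14.0 and 13.0 TPM. In both genes the groups overlapped, with differences of 0.09 (95% interval -0.43 to 0.61) and 0.06 (-0.59 to 0.71). The abundant proteins S10 (TRINITY_DN56223_c4_g2) and S6 (TRINITY_DN49444_c0_g1) had means of 62.8 ± 6.88 and 59.9 ± 7.19 TPM, and of 57.6 ± 20.7 and 61.4 ± 5.37 TPM.

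The largest shortfall in this subunit was in S26. S26 (TRINITY_DN60603_c2_g5) had 35.9, 37.1 and 46.7 TPM in NT1 to NT3 and 31.0, 27.2 and 31.4 TPM in AB1 to AB3. The groups did not overlap, but the difference of -0.40 (SE 0.191) did not pass the test (adjusted p = 0.252, limma). S33 (TRINITY_DN68456_c0_g1) and S25 (TRINITY_DN47379_c0_g1) followed with differences of -0.26 and -0.24 and overlapping groups. On the other side, the short S9 match had 2.80, 1.51 and 1.95 TPM against 5.02, 4.59 and 1.24 TPM, a difference of 0.47 that rested on few counts and did not pass (adjusted p = 0.531, limma). The longer S9 gene (TRINITY_DN64732_c1_g1) had means of 22.3 ± 7.81 and 21.3 ± 2.52 TPM, and S24 (TRINITY_DN63197_c3_g5) differed by 0.22.

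None of the 38 large-subunit genes passed the test, with edgeR and DESeq2 on the counts of 5 libraries as well as with limma, and none had an unadjusted p under 0.05 in limma. Their differences ran from -0.46 to 0.36 with a median of 0.10, and 25 lay above 0 and 13 below. L12 (TRINITY_DN59320_c7_g1) had 31.6, 30.0 and 53.2 TPM in NT1 to NT3 and 35.9, 49.1 and 42.7 TPM in AB1 to AB3. The antibiotic values fell inside the non-treatment range, and the difference was 0.19 (95% interval -0.43 to 0.81).

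L10 and L47 were the 2 large-subunit genes whose groups did not overlap, 5.26% of the 38 against 30.3% of all genes tested. L10 (TRINITY_DN52763_c4_g4), which anchors L12 to the ribosome, had 11.4, 12.4 and 16.0 TPM against 17.2, 17.1 and 16.7 TPM in the antibiotic libraries, and its difference of 0.35 (SE 0.198) did not pass (adjusted p = 0.335, limma). L47 (TRINITY_DN49453_c0_g1) had 26.9, 29.5 and 43.0 TPM against 22.7, 21.6 and 26.0 TPM, a difference of -0.46 (SE 0.228; adjusted p = 0.273, limma). The gap between the groups was small beside the spread of the non-treatment libraries in both genes. L33 and L18 (TRINITY_DN48084_c0_g1) differed by 0.36 and 0.31, and L13 (TRINITY_DN56285_c6_g4) and L51 (TRINITY_DN58706_c4_g1) by -0.39 and -0.26, all with overlapping groups.

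**Figure D3:**
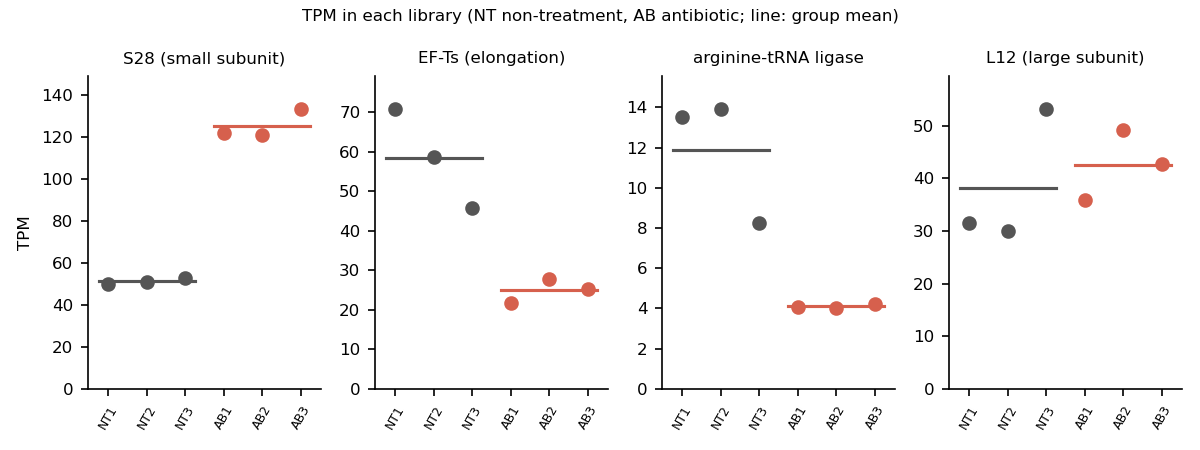
TPM of S28, elongation factor Ts, the arginine ligase and, as an example of a gene without a call, L12 in each library, with a line at each group mean; every vertical axis starts at 0. S28 is higher in all 3 antibiotic libraries, elongation factor Ts and the arginine ligase are lower in all 3, and the L12 values overlap.

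Of the elongation factors, Ts fell while its partner Tu did not pass the test. Elongation factor Ts (TRINITY_DN53338_c3_g1) exchanges the GDP on Tu for GTP, so that Tu can carry the next charged tRNA. It had 70.8, 58.6 and 45.8 TPM in NT1, NT2 and NT3 and 21.7, 27.8 and 25.3 TPM in AB1, AB2 and AB3. All antibiotic values lay below the lowest non-treatment value. The means were 58.4 ± 12.5 and 24.9 ± 3.02 TPM (SD, n = 3 libraries each), a difference of -1.18 (SE 0.222; adjusted p = 0.0156, limma). The call was held in 14 of 18 alternative fits, with differences of -1.34 to -1.03. It was lost without AB1 (adjusted p = 0.0591), AB3 (0.0648) or NT2 (0.0588) and with no filter on low values (0.0821), all in limma.

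The main elongation factor Tu gene (TRINITY_DN54894_c2_g2), which delivers charged tRNAs to the ribosome, had 51.3, 56.9 and 88.8 TPM against 79.2, 64.3 and 71.6 TPM. The groups overlapped, and the difference was 0.16 (95% interval -0.42 to 0.74). A second Tu gene (TRINITY_DN64935_c4_g2) had means of 9.25 ± 2.02 and 10.5 ± 2.03 TPM. Elongation factor G (TRINITY_DN52458_c2_g3), which moves the ribosome along the mRNA, had 13.3 ± 3.19 and 16.6 ± 2.10 TPM, a difference of 0.32 (adjusted p = 0.452, limma). Initiation factor IF-2 (TRINITY_DN56836_c5_g1), which places the first tRNA, had 8.01 ± 0.665 and 7.41 ± 0.887 TPM. Summed over the 4 elongation factors, the groups did not overlap (147 ± 14.2 against 124 ± 1.94 TPM), whereas the sum without Ts overlapped, at 69.9, 77.6 and 117 TPM against 102, 94.2 and 101 TPM.

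Of the 16 synthetases, which covered 14 amino acids, the arginine ligase fell and the other 15 did not pass the test. The arginine ligase (TRINITY_DN55008_c2_g5), whose best NR match is the mitochondrial enzyme of the seed beetle *Caryedes brasiliensis*, had 13.5, 13.9 and 8.24 TPM in NT1, NT2 and NT3. In AB1, AB2 and AB3 it had 4.09, 4.05 and 4.22 TPM. The groups were separated by a wide gap, and the antibiotic libraries were nearly equal. The means were 11.9 ± 3.17 and 4.12 ± 0.092 TPM (SD, n = 3 libraries each), a difference of -1.30 (SE 0.244; adjusted p = 0.0155, limma), and it was called in 12 of 18 alternative fits, with differences of -1.52 to -0.87. In limma the call was lost without AB1 (adjusted p = 0.0579), AB2 (0.0602), AB3 (0.0592), NT1 (0.0516) or NT2 (0.0647) and with no filter on low values (0.0690). The cytosolic arginine ligase (TRINITY_DN52334_c2_g2), the counterpart that serves the cytosolic ribosome, had 17.9 to 22.0 TPM and 18.3 to 24.9 TPM.

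Several other synthetases had lower values with antibiotics but did not pass the test. The proline ligase (TRINITY_DN59453_c2_g4) had 7.08, 8.29 and 7.65 TPM against 3.91, 5.32 and 6.04 TPM. Its groups did not overlap, and its difference of -0.52 (SE 0.219) had an unadjusted p of 0.0451 and an adjusted p of 0.194 in limma. The tryptophan ligase (TRINITY_DN58346_c1_g1; -0.25, adjusted p = 0.473, limma) was the third synthetase without overlap. Groups without overlap made up 18.8% of the 16 synthetases, against 30.3% of all genes tested. In all, 12 of the 16 differences lay below 0, with a median of -0.18. Over all genes tested 19319 of 33919 lay below 0, with a median of -0.09. The alanine ligase (TRINITY_DN64598_c2_g1) differed by -0.37, and the glutamate, methionine (TRINITY_DN56234_c3_g1) and leucine (TRINITY_DN54173_c3_g2) ligases by 0.32, 0.18 and 0.14, with overlapping groups except where named.

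The ribosomal proteins moved together from library to library. Their summed TPM was 1618, 1802 and 2441 in NT1, NT2 and NT3 and 1797, 2289 and 2118 in AB1, AB2 and AB3, so the spread within the non-treatment group (1.51-fold) was wider than the ratio of the group means (1.06). NT3 was the highest non-treatment library for 58 of the 60 proteins, against 35.1% of all genes tested, and the median ratio of NT3 to NT1 was 1.55, against 1.04 over all genes tested. AB1 was the lowest antibiotic library for 52 of the 60, against 56.0% of all genes tested. The median ratio of AB2 to AB1 was 1.29 for the ribosomal proteins and 1.28 for all genes tested.

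Part of the spread within groups was common to the 60 proteins. The SD of log2 TPM within a group had a median of 0.29 over the 60 proteins, and of 0.16 after the library median of the 60 was subtracted. The subtraction also takes out shifts that a library shares with all genes tested, and no other list was treated this way. In NT3 the nuclear-coded respiratory chain genes (74) also summed highest of the non-treatment libraries (16183 TPM, against 9697 and 9848), as did the muscle genes (15749 TPM, against 9887 and 9123). Their part in the NT3 values of the ribosomal proteins was not tested. NT3 exceeded NT1 in 77 of the 81 members. Elongation factor Ts and the arginine ligase were among the 4 exceptions, with ratios of NT3 to NT1 of 0.647 and 0.610, and S28, with a ratio of 1.05, had the second lowest ratio of the 60 ribosomal proteins.

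**Figure D4:**
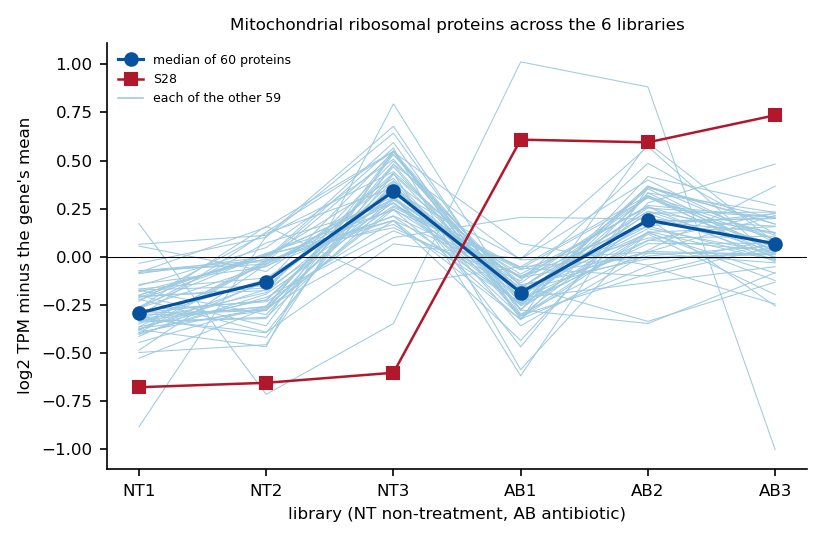
log2 TPM of each mitochondrial ribosomal protein in the 6 libraries, minus the mean of that gene over the 6. The thin lines are 59 proteins, the thick line is the median of all 60, and the squares are S28; the thin lines peak in NT3 and dip in NT1 and AB1, whereas S28 steps up between the groups.

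The order of the members by level was kept across the groups. Over the 81 members, Spearman's correlation of TPM ranged from 0.966 to 0.985 for libraries of the same group and from 0.940 to 0.977 for libraries of different groups. Over all genes tested the ranges were 0.814 to 0.869 and 0.600 to 0.721. These correlations are across genes, which are not independent replicates, and the members span a wide range of levels. The coefficient of variation within a group had a median over the members of 22.9% without and 13.8% with antibiotics, and the corresponding medians for tested genes in the members' TPM range were 22.8% and 25.3%.

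The rest of the mitochondrial gene expression pathway gave no call. Lists of release and rescue factors (6 genes), ribosome assembly factors (9) and tRNA modification and processing enzymes (11) were taken. With transcription and mRNA factors (8) they held 34 tested genes. Of these 34, 0 passed in limma, edgeR or DESeq2, against 10.1% of all genes tested in limma. At an unadjusted p under 0.05 in limma 2 passed, against 24.3% of all genes tested. The median difference of the 34 genes was -0.02. A gene for the tRNA-modifying GTPase GTPBP3 (TRINITY_DN53657_c6_g1) had 4.46, 4.66 and 4.90 TPM against 10.9, 9.25 and 5.78 TPM, a difference of 0.73 (adjusted p = 0.128, limma). A second gene of that name (TRINITY_DN57478_c3_g1) had 1.58, 1.67 and 2.49 TPM against 2.32, 2.79 and 3.11 TPM. Its groups overlapped, with a difference of 0.37 (adjusted p = 0.397, limma). PTCD2 (TRINITY_DN59952_c2_g1), known in mice for maturation of the cytochrome b mRNA, had 45.5, 35.8 and 50.0 TPM against 25.6, 29.8 and 26.7 TPM, a difference of -0.65 (adjusted p = 0.0894, limma). The groups did not overlap in the first GTPBP3 gene and in PTCD2. In all, 4 of the 34 genes (11.8%) had no overlap, against 30.3% of all genes tested. The mitochondrial RNA polymerase (TRINITY_DN61059_c2_g1) and transcription factor A (TRINITY_DN50177_c0_g1) had means of 14.3 ± 0.421 and 14.4 ± 2.96 TPM, and of 23.2 ± 5.51 and 23.0 ± 3.61 TPM. The assembly list was made by keyword and also took in a malonyl-CoA transacylase, an enzyme of fatty acid synthesis.

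Other gene groups of the mitochondrion and the cytosol were set beside the members. Of 95 cytosolic ribosomal protein genes 1 passed the test, lower with antibiotics, and their median difference was 0.06, whereas of 15 cytosolic synthetases 0 passed in limma (1 at an unadjusted p under 0.05). Of the 74 nuclear-coded respiratory chain genes 12 fell and 0 rose, although their median difference was 0.23, and of 52 genes of import, the TCA cycle and porin 10 fell and 0 rose. These are 16.2% and 19.2% of the lists, against 7.26% lower and 2.88% higher among all genes tested. With antibiotics 13 of the 74 and 11 of the 52 had a mean under 1 TPM, as did 22.1% of all genes tested, and 10 and 7 of these were among the called genes. No member had a mean under 1 TPM in either group. Genes with sperm and axoneme names (63), which summed to 1389 to 2425 TPM in the non-treatment and 1290 to 1563 TPM in the antibiotic libraries, were lower in 30 and higher in 3, against the same background. Their part in the respiratory chain calls was not tested.

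**Figure D5:**
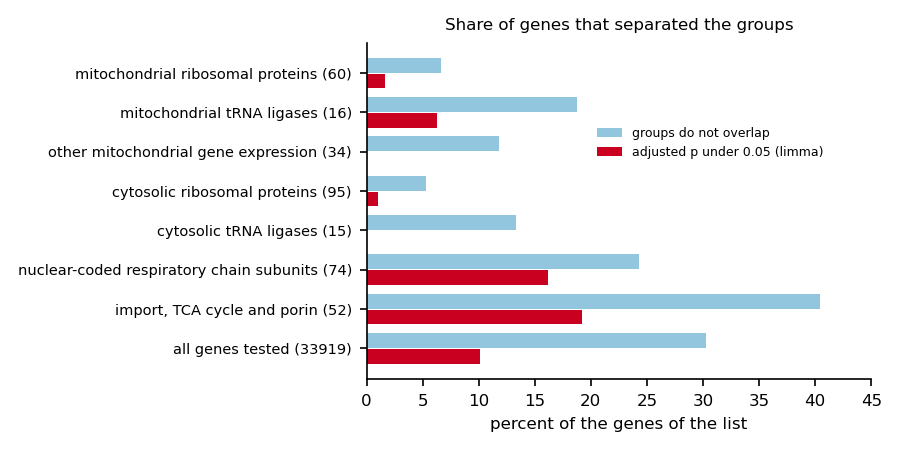
Percent of the genes of each list whose 3 antibiotic values do not overlap the 3 non-treatment values, and percent with an adjusted p under 0.05 in limma, with the number of tested genes in brackets. The mitochondrial ribosomal proteins (6.67% and 1.67%) lie below all genes tested (30.3% and 10.1%). So do the cytosolic ribosomal proteins (5.26% and 1.05%) and the cytosolic tRNA ligases (13.3% and 0%). Import, TCA cycle and porin genes (40.4% and 19.2%) lie above, and respiratory chain genes (24.3% and 16.2%) lie below in the first share and above in the second.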

How the data were processed

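Transcriptomes of 3 non-treatment and 3 antibiotic libraries were compared, with groups and replicate numbers from the labels. TPM values were computed and deposited by the authors for 236706 Trinity genes in 6 libraries, through featureCounts per the methods; the submitters' notes name FastQC, Salmon and DESeq2 and the build mm10, which is a mouse build. For the aligner, the assembler settings and tool versions, nothing was given in the sources used here. The authors also deposited estimated counts, used for 5 libraries and rounded to whole numbers (25397497 to 33613953 per library); a member had 4 to 22347 of them in a library, with a median of 1066. Fold changes and p-values of the authors were not used.

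limma with a mean-variance trend was fitted on log2(TPM + 1) of the 33919 genes with a mean of at least 1 TPM in a group, with Benjamini-Hochberg adjustment over all of them. The test was tested on simulated data. Alternatives were pseudocounts of 0.1 and 5, median-of-ratios rescaling, 3 other low filters, no trend, a replicate block, each library left out, edgeR and DESeq2 on counts, 1 gene per Swissprot entry, members with an arthropod match and, chosen after seeing the data, genes named by their NR match. Genes named in the text were all factors, the 3 most abundant in each main role, the 3 higher and 3 lower with the smallest p, S12, S29 and L12, and the 3 candidates on each side of the floor. Other genes were named after their values were seen. The members and lists were chosen with earlier results of these data known. Differences between replicates were summarised as SD. Protein and gene sequences of the members were not analysed here. The tools were R 4.3.3, limma 3.58.1, edgeR 4.0.16, DESeq2 1.42.0, Python 3.11.15, NumPy 2.4.6, pandas 2.3.3, SciPy 1.17.1 and matplotlib 3.10.9.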

Additional observations from a re-analysis of the deposited data

How the results depend on the processing

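The count of members called higher was 1 in each of the alternatives, S28 in every fit. The count called lower was 2 except with no filter on low values, where more genes were tested and it was 0, and when a library was left out, where it ranged from 0 to 2 (0 without AB1, AB3 or NT2, 1 without AB2 or NT1). The number past the fold threshold and higher ranged from 1 to 2 when a library was left out, with 2 without AB3. The other 78 members were called in none of the fits they entered, 19 for most and 18 for the 5 that fell below the floor of 5 TPM. The log2 ratio of summed TPM of the elongation factors was -0.24 and moved to -0.12 with TPM rescaled by median-of-ratios factors. That rescaling moved the median difference of all genes tested from -0.09 to -0.01 and that of the members from 0.03 to 0.14, and the edgeR and DESeq2 fits on 5 libraries gave 0.14 to 0.17. The members' median ranged from -0.09 to 0.17 when a library was left out, so its sign depends on the library. Adding 3 genes whose NR name but not Swissprot name is a mitochondrial ribosomal protein (L46, S31 and S11) added no call. Replicate numbers were not used as pairs in the main fit. The deviations of same-numbered libraries correlated at 0.13, -0.09 and 0.10, and those of differently numbered libraries at -0.17 to 0.08. With 3 libraries in a group these values cannot decide whether the samples were paired. The replicate block called 1 member higher and 2 lower. TPM carries no depth, and 1 member, the short S9 match, had under 10 counts in a library.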
